A study of Homo sapiens with 6 samples.

Results

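Genes of the dense-core granule were examined in D283, an established line of human medulloblastoma cells grown as tumorspheres. The 10 genes were SCG2, SCG3, SCG5, CHGA, CHGB, VGF, CPE, PCSK1, PCSK2 and CADPS. A gene counted as measured when a transcript cluster, the array's unit for 1 gene or transcript, carried its symbol and no other in the array annotation. This held for 8 of the 10 genes, each with 1 cluster, among 14884 named genes and 53617 clusters in all. PCSK1 and PCSK2 were not analysed here.

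Per the sample labels, the plates were of the ultra low-attachment kind and the DMEM/F12 medium held N2, B27, EGF and bFGF. The OTX2 KD group (n = 3 arrays) received the siRNA s9931 against OTX2, a transcription factor of head and retinal development. The scramble group (n = 3 arrays) received a nonsilencing siRNA. Per the study's methods the arrays of a group were biological replicates, and with 1 line and 1 siRNA against OTX2 the effects of that sequence on other transcripts cannot be told apart from those of OTX2.

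Neurons and endocrine cells hold a regulated secretory pathway beside the constitutive one that all cells use. Prohormones and granins are packed together in the trans-Golgi network, cut by convertases at pairs of basic residues, trimmed by a carboxypeptidase, and kept in dense-core granules until calcium triggers their release. Granins are widely used as markers of neuroendocrine cells and of neuronal maturation, and some medulloblastomas stain for them.

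OTX2 RNA was 10.56, 10.56 and 10.55 log2 units in scramble and 9.62, 9.57 and 9.57 in OTX2 KD. Every knockdown array thus lay below every control array, with a log2 fold change of -0.97 ± 0.073 (SE, limma, adjusted p = 8.7e-05). Array medians lay between 3.597 and 3.615 log2 units in scramble and between 3.672 and 3.708 in OTX2 KD. Every knockdown median was thus above every control median. No array stood apart within its group. Correlations across clusters lay between 0.990 and 0.993 for 6 pairs of the same group and between 0.959 and 0.965 for 9 pairs from different groups. Of 9 measured markers of Group 3 and Group 4 medulloblastoma, 8 lay above the array median in every array, the exception being EOMES, and 2 rose and 5 fell, OTX2 among them. Some markers of other lineages also rose. Of 3 astrocyte and 4 endothelial markers 0 passed the test (limma, and 0 at an unadjusted p below 0.05), of 5 oligodendrocyte markers OLIG1 (0.53) and OLIG2 (0.78) rose on the log2 scale, and of 2 leukocyte markers CD68 rose (1.13) and CD14 did not pass (0.15). Of 8 chromaffin and endocrine markers PRL alone rose (1.51). The summed level of the oligodendrocyte markers ran from 6.64 to 6.81 log2 units in scramble and from 7.04 to 7.25 in OTX2 KD, and that of the leukocyte markers from 5.32 to 5.41 and from 6.27 to 6.34. Their part in the results below was not tested.

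Expression of 7 of the 8 measured granule genes rose after OTX2 KD, 0 fell (also 0 at an unadjusted p below 0.05, limma), and SCG5 did not pass the test. In bulk RNA, a change in the share of a cell type and a change in RNA per cell cannot be told apart. The median log2 fold change of the 8 genes was 0.81, against 0.05 over all clusters and 0.00 over named genes. Calls were made at an adjusted p below 0.05, and at that threshold 14.8% of all clusters rose and 13.1% fell. Among named genes, taken at their brightest cluster, 16.6% rose and 23.2% fell. After median centring of the arrays the clusters divided differently, with 6027 higher and 8611 lower in place of 7932 and 7034, but the same 7 granule genes were higher. At least 2-fold increases were seen for 3 of the 8 genes, SCG2, CHGB and CADPS, where 3.12% of clusters and 3.82% of named genes rose that far. For the 7 genes that rose, all OTX2 KD arrays lay above all scramble arrays, which held for 23.5% of clusters and 24.9% of named genes. Each of the 7 fold changes ranked above the 90th percentile of named genes, from 92.1 for CHGA to 99.0 for SCG2.

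**Figure D1:**
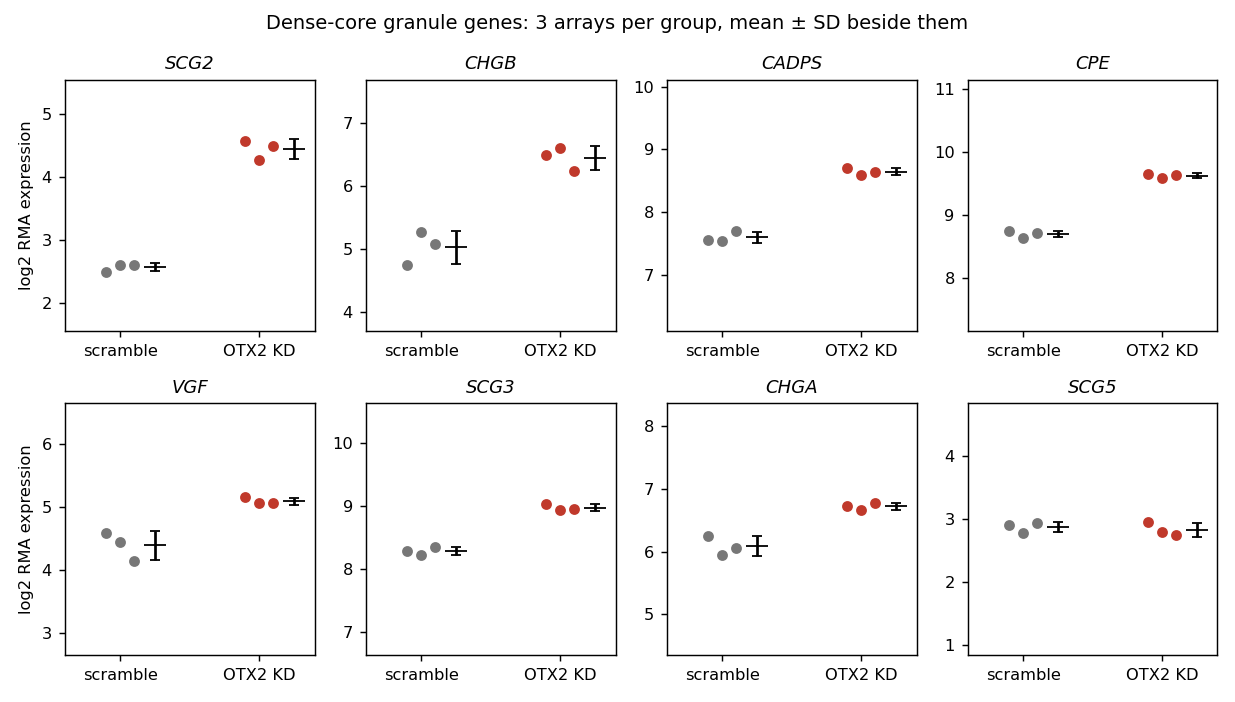
Log2 RMA expression (y axis) of the 8 measured granule genes in the 3 scramble arrays (grey) and the 3 OTX2 KD arrays (red), with the mean ± SD of each group beside the points. All y axes span the same number of log2 units. The groups are separate for 7 genes and overlap for SCG5.

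The granins, acidic proteins that bind calcium and form the condensed core of the granule, were counted here as CHGA, CHGB, SCG2, SCG3 and VGF, and 5 of 5 rose, where 16.6% of named genes did. SCG5, also named secretogranin V, was placed with the processing helpers for its role and did not pass. Counted with the granins, it would make the count 5 of 6. SCG2 encodes secretogranin II, the precursor of the neuropeptide secretoneurin. Its level was 2.49, 2.60 and 2.61 log2 units in scramble and 4.58, 4.27 and 4.50 in OTX2 KD. The lowest knockdown array was 1.66 log2 units above the highest control array, the widest gap among the 8 genes. The log2 fold change was 1.88 ± 0.104 (SE), or 3.69-fold (95% CI 3.12 to 4.37, adjusted p = 2.28e-05). In scramble SCG2 lay between the 27.5th and 30.6th percentile of all clusters on its array, and in OTX2 KD between the 59.8th and 64.6th. The deposited values carry no measure of background, which limits how well the size of a rise from so dim a level is known.

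CHGB, which encodes chromogranin B, was measured at 4.74, 5.26 and 5.08 log2 units in scramble and at 6.49, 6.61 and 6.23 in OTX2 KD. It varied most between replicates of all granule genes, with SDs of 0.263 and 0.192 (n = 3 each), yet the groups stayed 0.97 log2 units apart. The rise was 2.67-fold (95% CI 2.06 to 3.45, log2 fold change 1.42 ± 0.158, SE, adjusted p = 0.000534).

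Its relative CHGA, whose product chromogranin A is the classic neuroendocrine marker and the source of catestatin and vasostatin, rose less. Scramble arrays gave 6.25, 5.95 and 6.05 log2 units, and OTX2 KD arrays 6.73, 6.66 and 6.77. The groups were separated by 0.40 log2 units, the narrowest gap among the 7 genes that rose. The log2 fold change was 0.63 ± 0.101 (SE), or 1.55-fold (95% CI 1.31 to 1.83, adjusted p = 0.00299).

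VGF is a granin-like precursor of several neuropeptides that was first found as a gene induced by nerve growth factor. Its 3 scramble values were 4.59, 4.44 and 4.13 log2 units, and its 3 OTX2 KD values were 5.15, 5.06 and 5.06. Control arrays were more spread than knockdown arrays, with SDs of 0.231 and 0.056 (n = 3 each). VGF rose 1.63-fold (95% CI 1.33 to 2.00, log2 fold change 0.70 ± 0.125, SE, adjusted p = 0.00496).

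SCG3, or secretogranin III, binds cholesterol-rich membrane and helps to hold other granins to the granule wall. It was a bright transcript in both groups, above the 95th percentile of every array. Levels were 8.29, 8.22 and 8.34 log2 units in scramble and 9.03, 8.94 and 8.95 in OTX2 KD, so that replicates lay close together. The increase was 1.61-fold (95% CI 1.41 to 1.83, log2 fold change 0.69 ± 0.080, SE, adjusted p = 0.000664).

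Among the enzymes and their helpers, CPE and SCG5 were measured. CPE encodes carboxypeptidase E, which removes the basic residues that convertases leave at the end of a peptide. It read 8.74, 8.64 and 8.71 log2 units in scramble and 9.65, 9.58 and 9.63 in OTX2 KD. With SDs of 0.053 and 0.037 (n = 3 each), the groups stood 0.84 log2 units apart. CPE rose 1.90-fold (95% CI 1.67 to 2.15, log2 fold change 0.92 ± 0.077, SE, adjusted p = 0.000139).

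SCG5 encodes the protein 7B2, a chaperone and inhibitor of the convertase PCSK2. Unlike the other 7 genes it overlapped between groups, at 2.91, 2.79 and 2.93 log2 units in scramble and 2.95, 2.79 and 2.75 in OTX2 KD. The log2 fold change was -0.05 ± 0.093 (SE, adjusted p = 0.753), with a 95% CI of -0.27 to 0.17, or 0.832-fold to 1.12-fold. SCG5 lay between the 31.3rd and 37.1st percentile on all 6 arrays, so a change below the range that this cluster can detect would not be seen. The interval of SCG5 did not overlap that of any other granule gene, but it covers replicate scatter only and not this limit.

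CADPS encodes CAPS1, which primes docked dense-core granules for calcium-triggered fusion. The gene was measured at 7.56, 7.55 and 7.70 log2 units in scramble and at 8.70, 8.60 and 8.65 in OTX2 KD. All knockdown arrays were at least 0.90 log2 units above the controls. The rise was 2.06-fold (95% CI 1.80 to 2.37, log2 fold change 1.05 ± 0.084, SE, adjusted p = 0.000112).

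**Figure D2:**
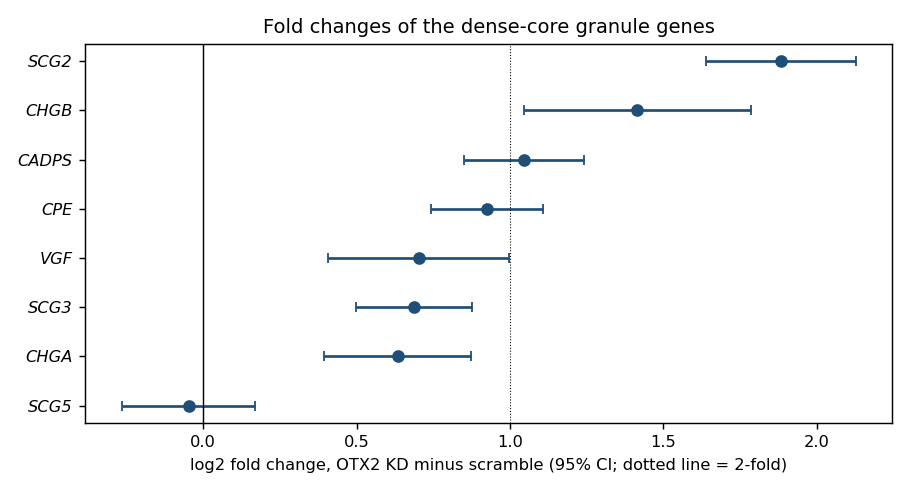
Log2 fold change of OTX2 KD over scramble (x axis) for each measured granule gene, as the limma estimate (point) with its 95% CI (bar); the dotted line marks 2-fold. The intervals of SCG2 and CHGB lie wholly above 2-fold, and that of SCG5 spans 0.

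In the order of fold changes, neighbours were often not distinguishable by their intervals. The interval of SCG2 overlapped only that of CHGB. That of CHGB also overlapped those of CADPS and CPE, and those of CADPS, CPE, VGF, SCG3 and CHGA all overlapped one another, so these 5 genes did not form separate steps. For SCG2 and CHGB the whole interval was above 2-fold, whereas for VGF, SCG3 and CHGA it was below.

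Promoters were compared because 7 of the genes moved together. RefSeq promoter windows (GRCh38.p14), from 250 bases before to 50 bases after the transcription start, were matched for 6 of the 8 measured genes, CHGA, VGF, SCG3, SCG5, CPE and CADPS. SCG2 and CHGB, the genes with the largest rises, had no window, and SCG5 was the gene that did not pass. The window was searched for the full cAMP response element (TGACGTCA, the palindromic site of CREB) and for TAATCC, a core bound by OTX2, on both strands. It was also searched for the TATA box and, as TTCAGCACC, for the left part of the RE1 element of the repressor REST. The TATA box was spelled TATAAA. CHGA and VGF each held 1 cAMP response element, at -54 to -47 and -79 to -72 from the start, a motif present in 1.85% of 35116 promoter windows. Both upstream windows are shown because they are the ones that held the element. SCG3, which rose by a similar amount, did not hold it. CHGA is at chr14:92922900-92923149 (plus strand) and VGF at chr7:101165570-101165819 (minus strand), each 5′ to 3′ from -250 to -1, with the element in capitals.
CHGA: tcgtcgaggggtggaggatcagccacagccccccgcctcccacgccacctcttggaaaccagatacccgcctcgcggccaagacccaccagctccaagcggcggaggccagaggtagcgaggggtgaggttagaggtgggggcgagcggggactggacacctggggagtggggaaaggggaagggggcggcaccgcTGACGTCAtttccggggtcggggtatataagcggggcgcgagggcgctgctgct
VGF: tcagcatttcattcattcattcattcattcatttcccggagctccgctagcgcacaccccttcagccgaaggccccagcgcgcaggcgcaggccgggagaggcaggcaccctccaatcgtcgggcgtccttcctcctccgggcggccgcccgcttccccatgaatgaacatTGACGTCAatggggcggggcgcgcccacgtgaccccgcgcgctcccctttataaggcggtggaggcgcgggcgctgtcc

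CPE held the shorter core TGACGT at 2 places, -221 to -216 and -120 to -115, a core that 7.98% of windows hold and that was searched after the sequences were seen. The SCG3 window held the left part of RE1, found in 0.376% of windows, at 9 to 17 bases after the start. The right part, GGACAG (searched after the sequences were seen, in 20.5% of windows), followed on the same strand at 26 to 31, and no share is given for the pair because it was defined from this site. VGF also held GGACAG, on the opposite strand at -6 to -1, without the left part. The site is shown because REST RNA changed in these cells (given below). It lies at chr15:51681511-51681533 (plus strand, GRCh38.p14), 5′ to 3′, with both parts in capitals and 8 bases between them.
SCG3: TTCAGCACCcacagggcGGACAG
The OTX2 core was in 0 of the 6 windows and in 6.36% of all windows. The spelling TATAAA of the TATA box was in the window of VGF, on the opposite strand, and in 11.5% of all. Other spellings were not searched, and the CHGA and VGF sequences above both hold tataag on the strand shown. The windows of SCG5 and CADPS held none of the motifs as searched. A match of letters is not a bound site, and binding was not measured on these arrays. The paper measured OTX2 binding in D283 tumorspheres by chromatin immunoprecipitation sequencing, over a wider region around the start. Those data were not used here. The paper also counted TAATCT as an OTX2 motif, which was not searched here.

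Other genes of the granule were taken from lists of the regulated secretory pathway. For granule membrane, biogenesis and exocytosis, 25 genes were measured, of which 11 were higher, 5 were lower and 9 missed the threshold (median log2 fold change 0.16). Among named genes, 16.6% were higher and 23.2% lower. At least 2-fold, 6.89% of named genes fell and 3.82% rose, and in this list 3 fell and 5 rose that far. SYT7, a calcium sensor of granule fusion, was 4.14, 3.84 and 4.14 log2 units in scramble and 5.77, 5.96 and 5.79 in OTX2 KD, a 3.48-fold rise (adjusted p = 4.05e-05). CCDC186, needed for granule maturation, rose 2.47-fold, with replicates within 0.011 and 0.017 log2 units (SD, n = 3 each). The RAB27 effectors EXPH5 and MYRIP, which link granules and related organelles to the cytoskeleton and membrane, were 5.54-fold and 2.40-fold lower. SYTL4, another RAB27 effector of the list, rose 2.17-fold, and SYTL5 and RPH3A did not pass (all chosen after their values were seen). Chosen after their values were seen, the fusion proteins STX1A and VAMP2 rose 2.20-fold and 2.23-fold. In the same list, and likewise chosen, CYB561 was 2.19-fold lower and UNC13B did not pass (log2 fold change -0.16).

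The close relative of CADPS moved the other way. CADPS2, chosen after its values were seen, encodes the second CAPS protein and was measured at 5.30, 5.43 and 5.56 log2 units in scramble and at 4.45, 4.37 and 4.53 in OTX2 KD. No knockdown array reached a control array, and the log2 fold change was -0.98 (1.97-fold lower, adjusted p = 0.000325), against 1.05 for CADPS.

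For peptide processing, 24 genes were measured, of which 4 were higher, 10 were lower and 10 missed the threshold (median -0.22). Of all named genes, 16.6% were higher and 23.2% lower. PCSK1N, whose product proSAAS is a granin-like inhibitor of PCSK1, rose most, from 4.91, 4.93 and 4.73 log2 units in scramble to 6.05, 6.29 and 6.30 in OTX2 KD, or 2.57-fold (adjusted p = 9.52e-05). PCSK5, a convertase of wider tissue range, followed with 1.44-fold. CPM, a cell-surface carboxypeptidase, and DPP6, a peptidase-like subunit of potassium channels without peptidase activity, were 2.54-fold and 2.34-fold lower. FURIN and CPD, counterparts of the convertases and of CPE in the trans-Golgi network of most cells, did not pass, at -0.22 and -0.23 on the log2 scale (adjusted p = 0.118 and 0.09; both chosen after their values were seen). Other convertases of the list did pass, PCSK4 (0.29) and PCSK7 (0.42) upward and PCSK6 (-0.73) downward on that scale.

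Among 56 neuropeptides, hormones and neurotrophins, 42 missed the threshold, 9 were lower and 5 higher (median 0.01), beside 23.2% lower and 16.6% higher of all named genes. The natriuretic peptide genes NPPA and NPPC rose 2.00-fold and 1.87-fold, whereas the synaptic organizer CBLN1 and the neuropeptide W precursor NPW were 2.92-fold and 2.49-fold lower. Of 9 genes of monoamine synthesis and storage, 1 rose, 2 fell and 6 did not pass. DDC, the amine-forming decarboxylase, rose 1.26-fold, a call that was lost after median centring, after a repeated quantile normalization and with the replicate number as a block. GCH1, which makes the cofactor of amine hydroxylases, and the amine oxidase MAOA were 2.47-fold and 2.23-fold lower. The catecholamine enzymes TH and DBH, chosen after their values were seen, had log2 fold changes of -0.02 and -0.05 and did not pass.

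**Figure D3:**
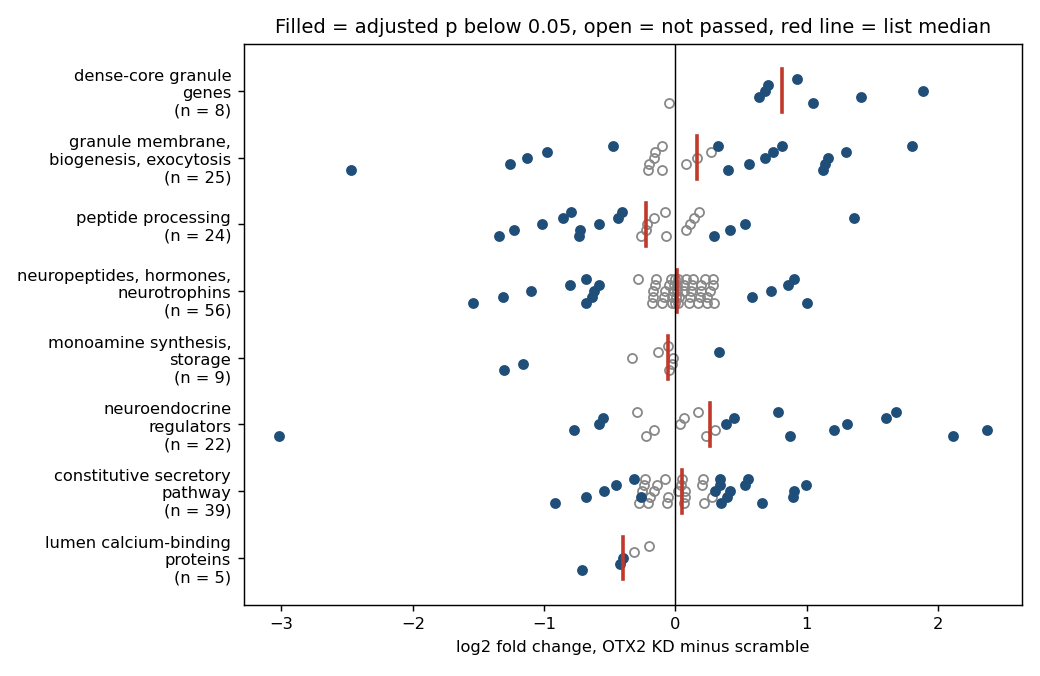
Log2 fold change of OTX2 KD over scramble (x axis) for each measured gene of the dense-core granule genes and of 7 related lists (rows, n = measured genes); filled points passed adjusted p 0.05, open points did not, and red lines are list medians. The granule genes have the highest median (0.81), and the other medians lie between -0.40 and 0.27.

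The constitutive secretory pathway was listed for comparison. Among 39 genes of coats, tethers and the translocon of the endoplasmic reticulum and Golgi, 21 missed the threshold, 12 were higher and 6 lower (median 0.05). Of all named genes, 16.6% were higher and 23.2% lower, so rises were not rare in this list. None of the 39 reached 2-fold in either direction, where 3.82% of named genes rose and 6.89% fell that far. After median centring 12 of the 39 fell in place of 6. SEC31B and SEC61A2, the less widely expressed forms of a COPII coat and a translocon subunit, rose 1.99-fold and 1.87-fold. The traffic genes BET1 and SAR1A were 1.89-fold and 1.60-fold lower. Of 5 calcium-binding proteins of the secretory lumen outside granules, 3 fell and 0 rose (also 0 at an unadjusted p below 0.05, limma), with the chaperones CALR and CANX 1.64-fold and 1.34-fold lower. These counts are set beside those of the granule genes as a description, and the difference between the lists was not tested.

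Among 22 regulators of neuroendocrine genes, 8 missed the threshold, 10 were higher and 4 lower (median 0.27), beside 16.6% higher and 23.2% lower of all named genes. REST, a repressor that binds RE1 elements and holds many genes of neurons and regulated secretion silent in other cells, was 6.81, 6.98 and 7.04 log2 units in scramble and 4.07, 3.64 and 4.07 in OTX2 KD. It was thus 8.09-fold lower, with a log2 fold change of -3.02 ± 0.139 (SE, adjusted p = 1.12e-05), the largest fall among the genes of these lists. The LIM homeodomain factor ISL1 was 1.71-fold lower.

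The zinc finger factors MYT1 and INSM1 rose most. INSM1, a regulator of endocrine and neuronal progenitors that also marks neuroendocrine tumours, was 7.26, 7.25 and 7.21 log2 units in scramble and 9.49, 9.33 and 9.25 in OTX2 KD, a 4.33-fold rise (adjusted p = 8.39e-06). MYT1 rose 5.18-fold, and its relative ST18, chosen after its values were seen, 3.20-fold. CREB1, which binds the cAMP response element shown above for CHGA and VGF and was likewise picked with its values in view, rose by 0.38 on the log2 scale (adjusted p = 0.00929). Of its relatives in the list, CREB3L1 rose (0.44), CREM (-0.55) and CREB3L2 (-0.58) fell, and ATF2 did not pass (0.17). Whether REST, INSM1, MYT1 or CREB1 took part in the rise of the granule genes was not tested.

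**Figure D4:**
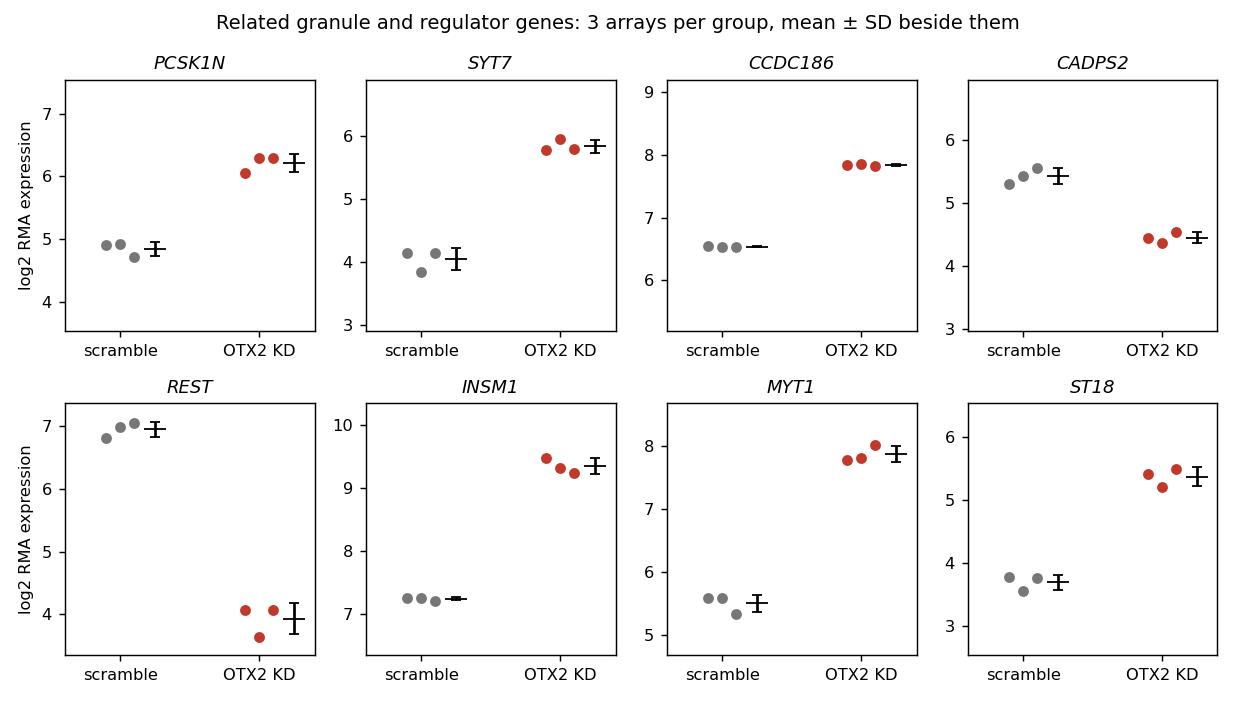
Log2 RMA expression (y axis) of 4 related granule genes (top) and 4 regulators (bottom) in the 3 scramble arrays (grey) and the 3 OTX2 KD arrays (red), with the mean ± SD of each group beside the points. CADPS2 and REST are lower in every OTX2 KD array than in every scramble array, and the other 6 genes are higher. The genes were picked from their lists with values known. Other rises, and the falls of EXPH5, MYRIP, CPM, DPP6 and ISL1, are not drawn.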

How the data were processed

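RNA of D283 tumorspheres was hybridized to Affymetrix HuGene 2.0 ST arrays. The deposited values were log2 RMA expression, made by the authors in Affymetrix Expression Console (background correction, quantile normalization, median-polish summary per transcript cluster). Quantile normalization gives all arrays nearly the same distribution, so values are relative to the rest of the array. All 53617 clusters were tested, with no filter. Gene symbols came from GEO's platform annotation, in which 16098 clusters had 1 symbol, 0 several and 37519 none. Sequences came from RefSeq tables. Protein sequences were not used here.

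Groups and replicate numbers came from the sample titles. The contrast of OTX2 KD minus scramble was fitted with limma (version 3.58.1, R 4.3.3), using lmFit and eBayes with 4 residual and 3.17 prior degrees of freedom. Tests were two-sided, and p-values were adjusted over every cluster by the Benjamini-Hochberg method. Errors are SE of the fit or SD of a group, intervals are 95% limma intervals, and percentiles are ranks among all clusters of an array. The precision is limited by the number of arrays. Figures used matplotlib 3.10.9.

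The 10 genes and the 7 related lists were chosen with earlier results of these data known. Named by rule were OTX2, REST, the 10 genes, and the 2 largest rises and falls of each related list past the threshold. Alternatives were other scalings, filters, variance models, thresholds, the replicate number as a block, and leaving out each array.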

Additional observations from a re-analysis of the deposited data

How the results depend on the processing

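The 7 rises and the lack of a call for SCG5 were kept under the replicate number as a block (replicate block, 7 higher and 0 lower), median centring, a repeated quantile normalization, testing only clusters with 1 symbol, trend and robust variance, and without each array in turn. Taking the mean of a gene's clusters could alter only their p-values, because each measured granule gene had 1 cluster, and it left the calls as they were. Leaving out the clusters dimmer than the median dropped SCG2 and SCG5, and 6 of the 6 remaining genes were higher. Only a limit on the fold lowered the count of 7 by more than 1.5 times. It was 3 with a 2-fold limit, 3 with that limit and an unadjusted p below 0.05, and 4 in a test against 1.5-fold, by construction of these limits. Over all clusters, 7932 rose and 7034 fell. The counts were 1672 and 1941 with the 2-fold limit, 1702 and 1959 with the unadjusted p, 1507 and 1894 against 1.5-fold, and 3240 and 4127 over clusters with 1 symbol, where fewer were tested. Deviations of same-numbered arrays correlated with r of -0.0559, -0.0228 and -0.000718, so no shared replicate effect was visible. The sample titles do not say whether same-numbered arrays were prepared together. The block gave 6774 higher and 6206 lower clusters. Leaving out 1 array at a time gave 6211 to 6848 higher and 5918 to 6295 lower clusters. Over all alternatives without a fold limit, the largest adjusted p was 0.0213 for VGF, 0.0143 for CHGA and 0.00574 for SCG3.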
